A study of Homo sapiens with 6 samples.

Results

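The genes described here write, read and erase DNA methylation: the methyltransferases DNMT1, DNMT3A and DNMT3B, the hemimethylated-DNA reader UHRF1, the dioxygenases TET1, TET2 and TET3, the glycosylases TDG and MBD4, and the methyl-CpG binder MBD2. They were taken as a named list, chosen with earlier results of these data known, and all 10 were found among the 58051 genes of the table. RNA-seq libraries labelled as NTera-2 (NT2), a human embryonal carcinoma line, came from a study of the piRNA piR-36249. The sample titles give 3 libraries to piR-36249 mimics and 3 to a scramble control, and all differences below are mimic minus scramble. The genotype field of the mimic libraries and the series design name a knockdown instead, so the sign of the piRNA change rests on the titles and the treatment field; piR-36249 itself was not analysed here. Whether the libraries of a group came from separate cultures is not stated, so p-values here reflect the spread among these libraries, which may be technical.

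Cytosine methylation at CG dinucleotides is laid down on unmethylated DNA by DNMT3A and DNMT3B and copied after replication by DNMT1, which UHRF1 recruits to the newly made strand. TET enzymes oxidise methylcytosine, and TDG excises the oxidised bases so that base excision repair can restore cytosine. In germ cells piRNAs direct this methylation to transposons, and in pluripotent cells DNMT3B and TET1 are known to be abundant.

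The markers measured in these libraries went against the labelled cell type, so NT2 is used below only as the label. Of 14 embryonal carcinoma markers, 2 were above 1 FPKM (a level scaled to gene length and library depth) in every library, PODXL and TERF1. NANOG, SOX2, SALL4, TDGF1 and L1TD1 were listed at 0 in all 6 libraries and POU5F1 reached 0.0706 FPKM at most. Of 15 endothelial markers, 11 were above 1 FPKM throughout, and these 11 were the ones that entered the test described below. Among them 9 rose with mimic and 0 fell, beside 18.7% higher and 16.8% lower of all tested genes. The summed level of the 15 was 1063 to 1152 FPKM with scramble and 1400 to 1505 with mimic. Summed fibroblast markers lay between 5.49 and 5.80 FPKM with scramble and between 7.93 and 8.30 with mimic, and summed blood cell markers did not exceed 0.397 FPKM. KDR, VWF, CLDN5 and EMCN of the endothelial list were below the filter on low values, and epithelial markers summed to 294 to 324 FPKM with scramble and 303 to 319 with mimic, with CDH1 at 0. KRT8, which rose (log2 0.20, adjusted p = 0.011), and KRT18 carried this sum, and the other 8 of 10 epithelial markers were below the filter. Every level and difference below therefore describes cells whose identity the label does not settle. The part of these levels in the results below was not tested. In bulk RNA, fewer cells of a type and less RNA per cell cannot be told apart. Library depth was 48.0 to 62.7 M recovered reads.

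Of the 10 genes, 9 had a mean of at least 0.5 FPKM and entered the test, a moderated linear model (limma) on log2(FPKM + 1) with Benjamini-Hochberg adjustment over all 12912 genes tested. DNMT3B and DNMT3A rose, DNMT1, UHRF1, TDG and MBD2 fell, and TET2, TET3 and MBD4 did not pass. The 6 calls among 9 stand beside 35.5% of all tested genes called, 18.7% higher and 16.8% lower. Values of the groups did not overlap in 7 of the 9, beside 49.2% of all tested genes. TET1 lay below the filter on low values and also did not overlap.

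**Figure D1:**
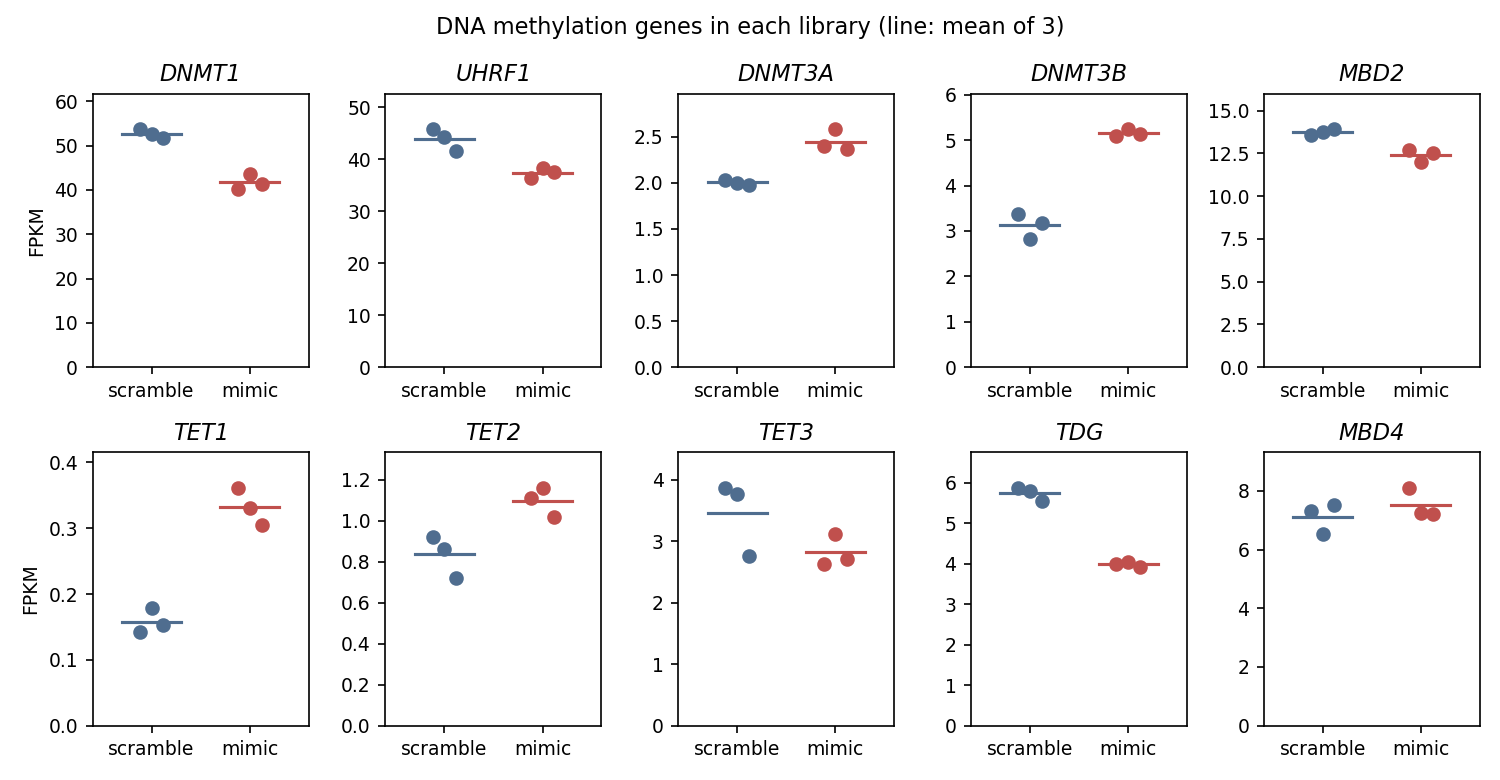
Level of each of the 10 genes in FPKM (vertical axes, each from 0) in the 3 scramble and 3 mimic libraries (points) with the group mean (line). The groups are apart in 8 genes and overlap in TET3 and MBD4.

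The 2 genes of maintenance methylation were the most abundant of the set, and both fell. DNMT1 (ENSG00000130816, chromosome 19, 10133345 to 10231286, minus strand, GRCh38) measured 53.7, 52.6 and 51.8 FPKM in scramble replicates 1 to 3 and 40.3, 43.5 and 41.3 FPKM in mimic replicates 1 to 3. Every mimic library lay below every scramble library, and the mean went from 52.7 ± 0.972 (SD, n = 3) to 41.7 ± 1.64 FPKM, 0.792 times the scramble level. Its log2 difference was -0.33 (SE 0.041, 95% interval -0.42 to -0.24, adjusted p = 0.00076). By mean level it stood above 92.4% of tested genes. Its exons share 83 bases, 0.847% of their length, with S1PR2 on the same strand.

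UHRF1 (ENSG00000276043, chromosome 19, 4903080 to 4962154, plus strand), which reads hemimethylated CG sites and histone H3, measured 45.8, 44.3 and 41.5 FPKM with scramble and 36.3, 38.4 and 37.5 FPKM with mimic. The groups did not overlap, though scramble replicate 3 was closer to the mimic libraries than the other scramble libraries were. The mean went from 43.8 ± 2.17 to 37.4 ± 1.05 FPKM, a log2 difference of -0.22 (SE 0.046, adjusted p = 0.0080). DNMT1 kept a level near that of UHRF1 in every library, with a ratio of FPKM between 1.17 and 1.25 with scramble and between 1.10 and 1.13 with mimic.

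Both genes are known to be transcribed with the genes of DNA replication, so an S phase list was read beside them. Of its 25 genes, all tested, 20 fell and 0 rose, beside 16.8% lower and 18.7% higher of all tested genes. The median log2 difference was -0.23 against 0.0025 for all tested genes. The largest falls were those of RRM2 (-0.99) and TYMS (-0.38), of nucleotide synthesis, and of MCM7 (-0.52) and CDC45 (-0.41), of the replicative helicase. PCNA, the replication clamp that binds DNMT1, measured 137.8 ± 2.46 FPKM with scramble and 128.3 ± 1.6 with mimic and did not pass (log2 -0.10, adjusted p = 0.054). It passed at a filter of 5 FPKM (0.0487) and with median-ratio scaling (0.0457). The part of a change in S phase share in the fall of DNMT1 and UHRF1 was not tested. For UHRF1, DNMT1 and TDG, which fell, the 250 bases before RefSeq starts (GRCh38.p14) are shown to compare their letters, 5′ to 3′ on the gene's strand. The window of MBD2, which also fell, had no E2F or CCAAT match and is not shown. Capitals mark matches to the E2F forms TTTCCCGC, TTTGGCGC, TTTCGCGC and TTTGGCGG and to CCAAT, the core of the NF-Y motif, on either strand. The UHRF1 windows are chr19:4909251-4909500 and chr19:4909894-4910143 on the plus strand, that of DNMT1 is chr19:10194954-10195203 on the minus strand, and that of TDG is chr12:103965622-103965871 on the plus strand.
UHRF1, first start: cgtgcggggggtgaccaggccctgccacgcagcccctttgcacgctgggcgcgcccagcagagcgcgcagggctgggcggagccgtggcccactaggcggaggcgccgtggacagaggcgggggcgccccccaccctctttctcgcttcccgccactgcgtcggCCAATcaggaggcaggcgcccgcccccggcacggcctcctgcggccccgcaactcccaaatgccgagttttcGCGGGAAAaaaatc
UHRF1, second start: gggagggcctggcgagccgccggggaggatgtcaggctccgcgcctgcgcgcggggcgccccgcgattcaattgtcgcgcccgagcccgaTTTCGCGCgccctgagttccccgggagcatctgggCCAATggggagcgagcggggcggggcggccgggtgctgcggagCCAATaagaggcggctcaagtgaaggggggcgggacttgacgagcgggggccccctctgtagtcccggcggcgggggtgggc
DNMT1: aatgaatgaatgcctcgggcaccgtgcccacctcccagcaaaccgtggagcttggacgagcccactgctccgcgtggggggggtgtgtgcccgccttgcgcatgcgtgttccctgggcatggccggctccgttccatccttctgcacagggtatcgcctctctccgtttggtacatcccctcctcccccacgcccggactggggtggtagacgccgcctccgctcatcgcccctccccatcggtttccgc
TDG: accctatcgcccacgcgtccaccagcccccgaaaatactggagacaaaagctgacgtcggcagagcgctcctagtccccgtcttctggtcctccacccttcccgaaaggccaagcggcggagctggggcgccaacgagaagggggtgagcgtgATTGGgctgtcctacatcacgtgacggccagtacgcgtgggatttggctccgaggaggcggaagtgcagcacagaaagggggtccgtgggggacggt

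The first UHRF1 window holds TTTCCCGC on the opposite strand, from 14 to 7 bases before the start, and the second holds TTTCGCGC from 160 to 153 bases before it. The remaining UHRF1 window in the table had no E2F or CCAAT match. An E2F form was found in 2.83% of the 35116 promoter windows of the same length and CCAAT in 32.0%. The DNMT1 and TDG windows matched no E2F form, which says only that these letters are not there, and TDG holds CCAAT on the opposite strand. The windows hold 28 and 32 CG dinucleotides in UHRF1, 21 in DNMT1 and 22 in TDG, beside a median of 11 over all windows. Gene-level FPKM does not show which start was used. The DNMT1 start lies 36333 bases inside the gene as GENCODE 29 annotates it. The UHRF1 starts shown lie 6421 and 7064 bases inside the annotated gene. None of the other genes had an E2F match in any listed window. CCAAT was also present in windows of DNMT3B, TET1, TET3 and MBD4, none of which was called lower. The letters of the cell cycle genes homology region, TTTGAA or TTCGAA, found in 14.3% of all windows, were present for TET2 and MBD2 only.

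Of the de novo methyltransferases, DNMT3B showed the largest difference among the 9 tested genes. DNMT3B (ENSG00000088305, chromosome 20, 32762385 to 32809356, plus strand) measured 3.37, 2.82 and 3.18 FPKM with scramble and 5.08, 5.24 and 5.13 FPKM with mimic. The mimic libraries lay close together and all above the scramble libraries. The mean went from 3.13 ± 0.283 to 5.15 ± 0.0821 FPKM, 1.65 times the scramble level, with a log2 difference of 0.58 (SE 0.061, 95% interval 0.44 to 0.72, adjusted p = 0.00037). Of all tested genes 3.86% had a larger absolute difference. These values rest on 689 to 980 recovered reads per scramble library and 1140 to 1380 per mimic library.

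DNMT3A (ENSG00000119772, chromosome 2, 25227855 to 25342590, minus strand), the other de novo enzyme, measured 2.04, 1.996 and 1.98 FPKM with scramble and 2.40, 2.58 and 2.37 FPKM with mimic. The groups were apart and the difference was small: the mean went from 2.0045 ± 0.0277 to 2.45 ± 0.117 FPKM, a log2 difference of 0.20 (SE 0.053, adjusted p = 0.023). Leaving out 1 library ended the call in 5 of 6 cases, all but mimic replicate 3 (adjusted p = 0.0501 to 0.0715), as did dropping the filter on low values (0.0562). DNMT3L, the catalytically inactive partner of both enzymes in germ cells, reached 0.0183 FPKM at most.

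Within each library the balance of writers differed between the groups. DNMT3B made up 62.4%, 58.5% and 61.6% of the summed FPKM of DNMT3A and DNMT3B with scramble and 68.0%, 67.0% and 68.4% with mimic. DNMT1 was 9.93, 10.9 and 10.02 times the sum of DNMT3A and DNMT3B with scramble and 5.39, 5.56 and 5.51 times with mimic. These shares and ratios do not overlap between the groups and are given as a description, with no test, since they combine genes already compared.

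The one DNMT3B window in the RefSeq table is shown because it holds fewer CG dinucleotides than those above. It lies at chr20:32779602-32779851 on the plus strand, and its start is 17467 bases inside the annotated gene. Capitals mark CCAAT.
DNMT3B: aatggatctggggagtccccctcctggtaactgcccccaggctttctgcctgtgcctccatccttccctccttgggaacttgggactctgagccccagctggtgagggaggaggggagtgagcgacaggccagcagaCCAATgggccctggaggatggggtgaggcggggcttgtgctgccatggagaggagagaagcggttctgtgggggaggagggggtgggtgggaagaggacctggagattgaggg

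It holds 3 CG dinucleotides, and 22.9% of all windows held fewer. The 6 DNMT3A windows held between 12 and 33. Other DNMT3B starts were not analysed here, so this is a description of the window and not of the promoter in use.

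**Figure D2:**
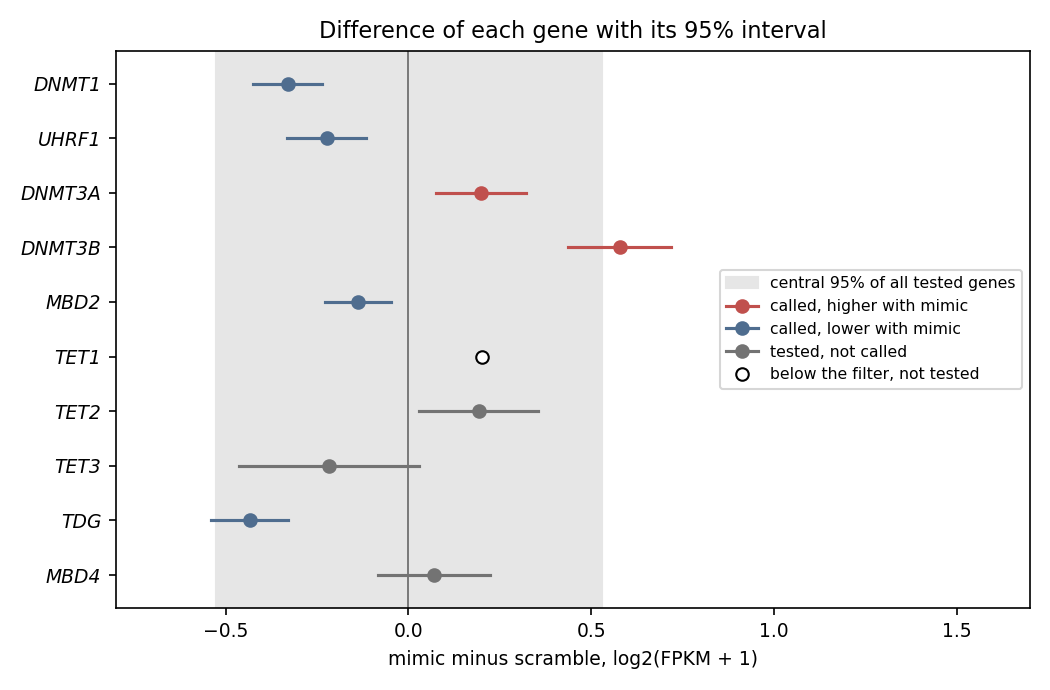
Mimic minus scramble difference on log2(FPKM + 1) with its 95% interval for the 9 tested genes, and the difference alone for TET1 (open circle). DNMT3B, at 0.58, lies outside the grey band from -0.53 to 0.53 that holds the central 95% of all tested genes, and the other 9 points lie inside it.

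The TET genes did not move as a group. TET1 (ENSG00000138336, chromosome 10, 68560656 to 68694482, plus strand), the member known from pluripotent cells, measured 0.142, 0.179 and 0.153 FPKM with scramble and 0.362, 0.331 and 0.305 FPKM with mimic. Every mimic library was above every scramble library at a low level: 83, 88 and 76 recovered reads against 197, 166 and 136. The mean went from 0.158 ± 0.019 to 0.333 ± 0.0283 FPKM, 2.101 times the scramble level, the largest ratio among the 10 genes. The authors' deposited table, which is limited to genes past a log2 fold change of 1 in either direction, lists TET1 with a log2 fold change of 1.07 and an adjusted p of 1.3e-06, and none of the other 9 genes is in it. With a filter of 0.1 FPKM its difference on log2(FPKM + 1), a scale that shrinks changes of low values, was 0.20 (limma adjusted p = 0.034).

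TET2 (ENSG00000168769, chromosome 4, 105145875 to 105279816, plus strand), which is often mutated in blood cancers, measured 0.924, 0.864 and 0.721 FPKM with scramble and 1.11, 1.16 and 1.02 FPKM with mimic. The groups did not overlap, but the log2 difference of 0.19 (SE 0.070, 95% interval 0.03 to 0.36) did not pass (adjusted p = 0.066). It passed with no variance trend (0.038) and with voom on recovered reads (log2 0.39, adjusted p = 0.0061), which does not add 1 to the values. With 0.1 or 0.01 added in place of 1, the log2 difference was 0.36 or 0.39. It did not pass in either case (limma adjusted p = 0.071 and 0.073). TET2-AS1, on the opposite strand, shares no exon bases with it and reached 0.0705 FPKM.

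TET3 (ENSG00000187605, chromosome 2, 73986404 to 74108176, plus strand), the most abundant of the 3, measured 3.87, 3.76 and 2.75 FPKM with scramble and 2.62, 3.12 and 2.71 FPKM with mimic. Scramble replicate 3 lay among the mimic libraries and the groups overlapped. The log2 difference was -0.22 (SE 0.11, 95% interval -0.46 to 0.03, adjusted p = 0.15), and without scramble replicate 3 it was -0.34 (adjusted p = 0.014). That library was also the lowest of its group for DNMT1, UHRF1, DNMT3A, TET2 and TDG, and the highest for MBD2 and MBD4. Tested genes were put in 5 equal classes by exon length, the longest holding 4 of the genes described here. The deviation of scramble replicate 3 from the scramble mean had a median of -0.051 on the log2 scale over the longest class. Over the shortest class this median was 0.043. Between the groups, the median difference went from -0.055 in the shortest class to 0.032 in the longest. The part of length in these results was not tested.

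Summed over the TET genes, levels overlapped between the groups, at 3.62 to 4.93 FPKM with scramble and 4.03 to 4.62 with mimic. Their make-up differed in every library. TET3 held 78.4%, 78.3% and 75.9% of the sum with scramble and 64.1%, 67.7% and 67.1% with mimic. TET2 held 18.0% to 19.9% with scramble and 25.2% to 27.1% with mimic, and TET1 2.89% to 4.22% and 7.16% to 8.83%. Shares within a sum are tied to each other and carry no test here.

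**Figure D3:**
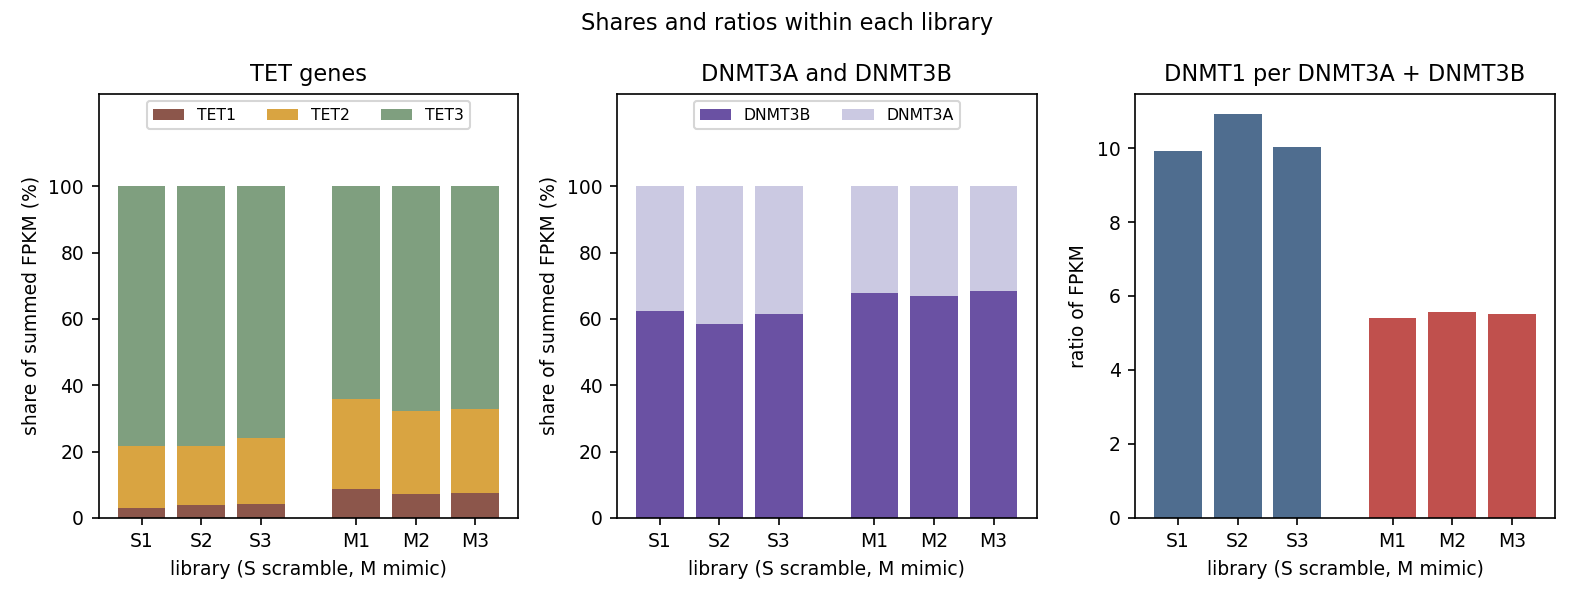
Left and middle, share of the summed FPKM held by each TET gene and by DNMT3A and DNMT3B in each library; right, FPKM of DNMT1 divided by the sum of DNMT3A and DNMT3B (S scramble, M mimic, with replicate numbers). TET3 is at or above 75.9% in scramble and at or below 67.7% in mimic libraries, and the ratio on the right is at least 9.93 with scramble and at most 5.56 with mimic.

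The glycosylases that act after or beside the TET enzymes behaved differently. TDG (ENSG00000139372, chromosome 12, 103965804 to 103988874, plus strand), which removes formylcytosine and carboxylcytosine as well as thymine mispaired with guanine, measured 5.87, 5.79 and 5.54 FPKM with scramble and 3.99, 4.05 and 3.91 FPKM with mimic. The groups were far apart relative to their spread, and the mean went from 5.73 ± 0.174 to 3.98 ± 0.0655 FPKM, 0.695 times the scramble level. The log2 difference was -0.43 (SE 0.045, 95% interval -0.54 to -0.33, adjusted p = 0.00037), the largest fall of the set. TDG has a processed pseudogene, TDGP1, which reached 0.454 FPKM and could share reads with it.

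MBD4 (ENSG00000129071, chromosome 3, 129430944 to 129440179, minus strand), which repairs thymine left by deaminated methylcytosine, measured 7.33, 6.52 and 7.52 FPKM with scramble and 8.11, 7.26 and 7.21 FPKM with mimic. The groups overlapped, and the log2 difference of 0.07 (95% interval -0.08 to 0.22, adjusted p = 0.44) did not pass. Its exons share 144 bases, 4.29% of their length, with IFT122 on the opposite strand, and whether counting used strand is not given. The ratio of MBD4 to TDG in FPKM was 1.25, 1.13 and 1.36 with scramble and 2.03, 1.79 and 1.84 with mimic.

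MBD2 (ENSG00000134046, chromosome 18, 54151601 to 54224788, minus strand), which binds methylated CG sites and recruits the NuRD chromatin remodeller, showed the smallest difference among the called genes. It measured 13.6, 13.7 and 13.9 FPKM with scramble and 12.7, 12.015 and 12.5 FPKM with mimic, with no overlap. The mean went from 13.8 ± 0.161 to 12.4 ± 0.357 FPKM, a log2 difference of -0.14 (SE 0.039, adjusted p = 0.029). More than this difference was seen in 50.7% of tested genes. Leaving out 1 library ended the call in 5 of 6 cases, all but mimic replicate 1 (adjusted p = 0.0677 to 0.0835), as did the TPM scale (0.0523).

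In exact two-sided permutation tests over the 6 libraries, the 8 genes without overlap each gave p = 0.1, the smallest that 3 against 3 allow, TET3 gave p = 0.2 and MBD4 p = 0.6. Ordered by mean FPKM over the 6 libraries, the genes were DNMT1 (47.2), UHRF1 (40.6), MBD2 (13.1), MBD4 (7.32), TDG (4.86), DNMT3B (4.14), TET3 (3.14), DNMT3A (2.23), TET2 (0.967) and TET1 (0.245). TDG lay above DNMT3B in all scramble libraries and below it in all mimic libraries. With scramble, the ranges of DNMT3B (2.82 to 3.37 FPKM) and TET3 (2.75 to 3.87 FPKM) overlapped, so their order there was not resolved.

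Genes whose log2 levels followed those of a member most closely were taken by Pearson's r over the 6 libraries, as a description. For DNMT3B these were BCR (r = 0.999), KANK1 (0.998) and ARAP3 (0.997), and for TDG YWHAB (r = 0.9997), NT5E (0.999) and MTHFD2 (0.999). YWHAB itself was not called (log2 -0.09, adjusted p = 0.067). With 6 libraries in 2 groups such values are common: 807 tested genes had r above 0.95 with DNMT3B and 869 with TDG.

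Around the methyltransferases, the genes that guide them to chromatin went in both directions. Of 16 tested genes of this list 3 rose and 5 fell, with a median log2 difference of -0.07. Over all tested genes 18.7% were higher and 16.8% lower, so the number that rose is no result about this list. CDCA7, which activates the remodeller HELLS at hemimethylated DNA, fell by 0.61 on the log2 scale (adjusted p = 0.00017), from 8.54 ± 0.37 to 5.27 ± 0.275 FPKM. TRIM28, the corepressor of zinc finger proteins that brings in methyltransferases, fell from 222.0 ± 3.92 to 166.4 ± 3.66 FPKM (log2 -0.41). CXXC1 (-0.25), which binds unmethylated CG, DMAP1 (-0.22), a partner of DNMT1, and CDCA7L (-0.18) fell as well. UHRF2, the paralog of UHRF1, rose from 4.57 ± 0.209 to 5.77 ± 0.197 FPKM (log2 0.28, adjusted p = 0.0041), opposite in sign to UHRF1 at -0.22. HELLS (0.16) and the histone methyltransferase EHMT1 (0.14) rose, but lost their calls without any single library (adjusted p up to 0.12 and 0.11), with no filter and with a filter of 0.1 FPKM; EHMT1 also lost its call with quantile normalization. For CDCA7L the call ended with no filter, on the TPM scale, or when mimic replicate 1, mimic replicate 3, scramble replicate 1 or scramble replicate 2 was left out (up to 0.0895). USP7, which stabilises DNMT1, did not pass (-0.09, adjusted p = 0.17).

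Among other methyl-CpG readers and the NuRD partners of MBD2, 4 of 19 tested genes rose and 4 fell, with a median log2 difference of -0.03. These counts lie near the shares over all tested genes, 18.7% higher and 16.8% lower, and are no result about the readers as a group. ZBTB4, a zinc finger protein that binds methylated DNA, rose from 9.68 ± 1.01 to 13.2 ± 0.624 FPKM (log2 0.42, adjusted p = 0.0038), and the other 3 that rose were the NuRD genes HDAC1 (0.32), CDK2AP1 (0.30) and CHD3 (0.14). The genes that fell were GATAD2B (-0.41), the remodelling ATPase CHD4 (-0.31), the histone chaperone RBBP4 (-0.21) and GATAD2A (-0.20). GATAD2A and GATAD2B join MBD2 to the rest of the complex; GATAD2B went from 6.66 ± 0.39 to 4.75 ± 0.466 FPKM. CHD3 kept its call only without mimic replicate 3 among the 6 omissions and lost it with no filter and with no variance trend (adjusted p up to 0.088), and RBBP4 without scramble replicate 1 (0.052).

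Of 20 tested genes of demethylation and base excision repair besides TDG and MBD4, 1 rose and 5 fell, with a median log2 difference of -0.06. These counts stand beside 18.7% higher and 16.8% lower of all tested genes. GADD45B, a stress-induced gene linked to demethylation, fell by 0.63 on the log2 scale (adjusted p = 0.0013), from 14.8 ± 1.66 to 9.24 ± 0.813 FPKM. The glycosylases MUTYH (-0.36) and SMUG1 (-0.27), the repair polymerase POLB (-0.28) and the strand-break sensor PARP1 (-0.15) fell too. For PARP1 the call ended on the TPM scale or when mimic replicate 1, mimic replicate 3, scramble replicate 1 or scramble replicate 2 was left out (adjusted p up to 0.0744). IDH1, which makes the 2-oxoglutarate that TET enzymes use, rose from 9.57 ± 0.241 to 12.5 ± 0.213 FPKM (log2 0.36, adjusted p = 0.00049). On the TPM scale and after quantile normalization 2 genes of this list rose.

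Genes that supply and recycle the methyl donor S-adenosylmethionine went in both directions: 7 of 14 tested fell and 2 rose, with a median log2 difference of -0.09. Of all tested genes, 16.8% were lower and 18.7% higher. MAT2A, which makes the donor, fell from 98.5 ± 3.45 to 76.8 ± 4.72 FPKM (log2 -0.36, adjusted p = 0.0018), as did AHCY, which clears the inhibitory product of methyl transfer, from 71.2 ± 2.57 to 59.6 ± 2.32 FPKM (log2 -0.25). The folate enzymes MTHFD2 (-0.93) and SHMT2 (-0.31) fell. AHCYL2, a relative of AHCY, rose from 1.48 ± 0.116 to 2.24 ± 0.0894 FPKM (log2 0.39, adjusted p = 0.0022). The number of genes of this list that rose was 1 in 5 of 6 omissions of a library, all but mimic replicate 1, and at a filter of 0.1 FPKM or none, and 0 at a filter of 5 FPKM.

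**Figure D4:**
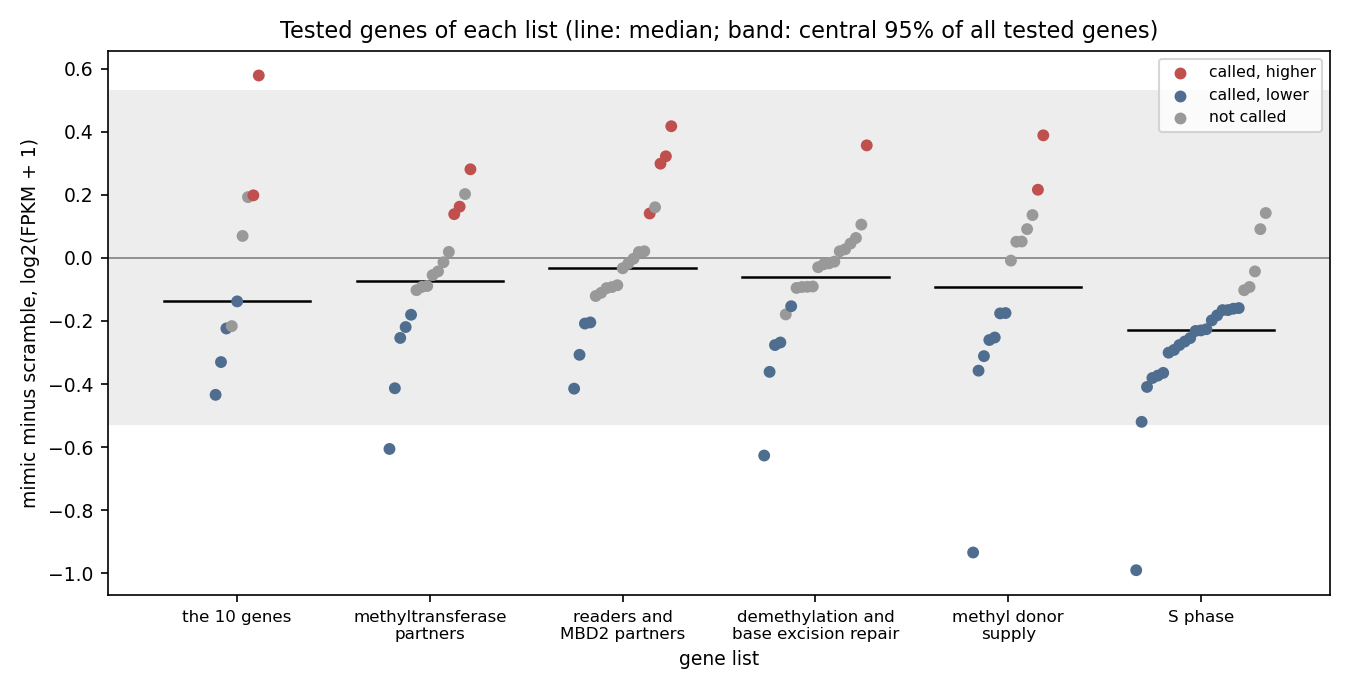
Mimic minus scramble difference on log2(FPKM + 1) for each tested gene (points) of the 10 genes and of 5 related lists, with the list median (line; colours mark called genes) and the central 95% of all tested genes (grey band). The S phase list has the lowest median, -0.23, and 0 of its genes were called higher.

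The machinery by which piRNAs guide DNA methylation in germ cells was close to 0. Of 11 genes, among them the PIWI protein gene PIWIL4, TEX15 and DNMT3L, 10 were below the filter and 4 were listed at 0 in every library. SPOCD1, which links PIWIL4 to methyltransferases, was the exception and fell by 0.36 on the log2 scale (adjusted p = 0.0080), from 2.36 ± 0.235 to 1.61 ± 0.16 FPKM. Of 34 germline genes known to be silenced by promoter methylation in somatic cells, 28 were below the filter and 13 at 0 throughout, DAZL, DDX4 and MAEL among them. The median log2 difference over the 6 tested was -0.18, against 0.0025 for all tested genes. Calls among these 6 stand beside 16.8% lower and 18.7% higher of all tested genes. MAGEA3 (-0.64, from 47.6 ± 1.11 to 30.2 ± 0.964 FPKM), MAGEB2 (-0.25) and MAGEA1 (-0.14) fell and PRAME rose (0.17). The MAGEA1 call ended on the TPM scale or when mimic replicate 1, mimic replicate 2, scramble replicate 1 or scramble replicate 2 was left out (adjusted p up to 0.0692). The PRAME call ended with no filter or when mimic replicate 1, mimic replicate 3, scramble replicate 1 or scramble replicate 2 was left out (up to 0.0922). MAGEA genes are close copies of each other, so their reads can be split unevenly. DNA methylation itself was not measured.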

How the data were processed

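RNA-seq of 6 libraries labelled NT2, grouped by their titles, was analysed from a table of FPKM values that the authors deposited. The submitters' processing notes name the build GRCh38, DESeq2 1.26.0 and featureCounts 2.0.1, with HISAT2 2.1.0 after Trimmomatic 0.39. How FPKM was computed, on which annotation and with what use of strand is not given in the sources used here. For TET1 alone, a fold change was also copied from the authors' deposited table of comparisons, which per the file headers holds log2 fold changes with adjusted p-values; all other differences were computed here. Names and exon lengths came from GENCODE 29 (57447 of 58051 identifiers matched). FPKM times exon length gave whole multiples of a step for 96.0% to 96.3% of low values (tolerance 0.02 reads), which gave reads and depth. Columns of other samples numbered 0.

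A mean of 0.5 FPKM or more admitted a gene to the test. Values of log2(FPKM + 1) were fitted in R 4.3.3 by limma 3.58.1, letting the variance follow the mean level, with Benjamini-Hochberg adjusted p under 0.05 as the call; the model was tested on simulated data. Replicates differed by more than counting noise (mean chi-square per gene 6.76 to 19.6). The genes and lists were chosen with earlier results of these data known. Genes named are the 10, up to 4 called genes per list with the largest change, those behind counts of 5 or fewer and the closest by correlation. PCNA, USP7, AHCY, DNMT3L and markers listed at or near 0 were named after their values were seen. Promoter windows came from RefSeq; protein sequences were not used here. A gene of the methyl donor list is not reported here. Alternatives covered pseudocount, filter, scaling, variance model, replicate block, voom on recovered reads and each library left out.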

Additional observations from a re-analysis of the deposited data

How the results depend on the processing

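The number of all tested genes called was 4584, between 3290 and 5037 (voom on recovered reads) under the other settings and between 3374 and 4006 with single libraries left out. Of the 10 genes, 9 were tested and 6 called. The count was 5 to 7 under other settings, except 3 at a filter of 5 FPKM, which leaves fewer of them in the test. It was 4 or 5 with single libraries left out. DNMT1, UHRF1, DNMT3B and TDG kept their direction and their call in all settings that tested them. DNMT3A lost its call with no filter (log2 0.20) and in part when single libraries were left out (0.17 to 0.22), and MBD2 on the TPM scale (-0.12) and likewise (-0.15 to -0.12). TET2 passed with no variance trend (0.19) and with voom (0.39). TET3 lay between -0.34 and -0.15 with single libraries left out and passed without scramble replicate 3. TET1 passed at a filter of 0.1 FPKM and with no filter (0.20 each), and at 1.08 with voom on recovered reads at a filter of 0.1 FPKM (adjusted p = 0.000418), a combination chosen after seeing the data. The cause of these shifts was not tested. With the replicate block 4609 of 12912 tested genes were called, and 6 of the 10. Among all listed genes named, EHMT1 lost its call with it (adjusted p = 0.053). The labels do not state whether replicate numbers pair the libraries, and correlations among so few libraries cannot settle it. Same-numbered libraries had correlated deviations of -0.062, 0.24 and 0.054. Mimic replicates 2 and 3 correlated best with their own number, and mimic replicate 1 with scramble replicate 3 (0.23). Depth limits TET1 most, with 76 to 197 recovered reads per library.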
